A study of Saccharomyces cerevisiae with 30 samples.

Results

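The locus described here is a 10-kb stretch of budding yeast (Saccharomyces cerevisiae) chromosome I that holds RFA1, SEN34 and an unusually wide binding site of Orc5. It reaches from the 3′ end of SWD1 to just beyond the reading frame YAR010C. The locus was selected on the break data themselves, because a DNA break peak lay at or within 500 bp of the wide Orc5 site in most lists, so how often it was broken is a description and carries no test. Its named members are 2 of 6021 nuclear protein-coding genes. It held 56 of the 4046 break peaks in all lists, which merge into 4 of 701 break regions of the nuclear genome.

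Break-seq labels and sequences broken DNA ends, and 16 such libraries were available, 2 in each of 8 groups. The strains were INO80-FRB Mot1-FRB, Mot1-FRB, INO80-FRB and WT-FRB, each with and without 100 mM hydroxyurea (HU), a drug that depletes deoxynucleotides and slows replication forks. In anchor-away, rapamycin exports an FRB fusion protein from the nucleus, and per the labels every Break-seq culture, WT-FRB included, had 3 h of rapamycin. INO80 is a chromatin remodeller and Mot1 removes the TATA-binding protein from DNA. Orc5, which belongs to the origin recognition complex, was mapped by ChIP-seq in an Orc5-FRB strain with and without rapamycin (1 library each), and Arp5, a subunit of the INO80 complex, in an Arp5-FRB strain with and without rapamycin (2 libraries each). The labels' ChIP-seq protocol gives nocodazole, then 1 h of rapamycin (8 µg/ml), then a G1 arrest by alpha factor, and speaks of Orc2, whereas the genotypes are Orc5 and Arp5. The labels do not say that replicates came from separate cultures, so a p-value here measures the spread between libraries, which may be technical. Depth is unknown, because peak lists give no read totals. The 4 Mot1-FRB lists stood apart, with 5 to 40 peaks against 180 to 510 in the other 12, and results that rest on them are given with and without them.

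RFA1 encodes the large subunit of replication protein A, the complex that coats single-stranded DNA during replication, repair and recombination. SEN34 encodes a catalytic subunit of the endonuclease that cuts introns out of precursor tRNAs. The origin recognition complex marks the places where replication can start, and forks that stall or collapse are a known source of broken ends.

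The label of a recurrently broken Orc5 site went against the data in position. Across the 16 lists, not a single break peak overlapped the wide Orc5 site, RFA1, SEN34 or the 346-bp interval between both genes. The breaks began to the right of the site, at the end of YAR009C, and filled parts of YAR009C and YAR010C. Of all nuclear protein-coding genes, 4.48% had a break peak in at least 1 list and 1.13% in at least 12 lists. RFA1 and SEN34 were in neither group.

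Coordinates below are those of sacCer3 (R64), counted from 1. On the minus strand, RFA1 (YAR007C) lies at I:156754-158619 (1866 bp), and its start faces that of SEN34 (YAR008W), which lies on the plus strand at I:158966-159793 (828 bp). To the left, SWD1 (YAR003W, I:155005-156285, plus strand) encodes a subunit of the COMPASS histone methyltransferase, and ERP1 (YAR002C-A, I:154065-154724, minus strand), which encodes a p24 protein of transport vesicles, is the gene next to it. To the right, YAR009C (I:160597-164187, 3591 bp) and YAR010C (I:164544-165866, 1323 bp) are reading frames on the minus strand that have no gene name in the annotation used. The tRNA gene TGA1 (I:166267-166339, plus strand) is the next gene beyond them. No break peak touched ERP1, SWD1 or TGA1 either.

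The wide Orc5 site spanned I:158408-160184 (1777 bp) with rapamycin and I:158372-160394 (2023 bp) without. In both conditions it held all of SEN34, the whole interval between RFA1 and SEN34, and the first part of RFA1. It covered 705 bp of RFA1 (37.8% of the gene) with rapamycin and 734 bp (39.3%) without. The site with rapamycin lay wholly inside the site without and its width differed by -246 bp, a ratio of 0.878, with the left edge moved by 36 bp and the right edge by -210 bp. Each condition has 1 library, so this difference has no replicate check.

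The site was among the widest in each list. With rapamycin it was the 48th widest of 1953 sites (percentile 97.6), and without rapamycin the 106th widest of 1411 (percentile 92.6), against median widths of 229 bp and 225 bp. Sites of at least 1 kb, called wide here, made up 8.76% of the list with rapamycin and 17.2% of the list without. Of the 243 wide sites without rapamycin, 125 overlapped a single site with rapamycin, 82 overlapped more than 1 and 36 overlapped none. Over those 125, the median width ratio, rapamycin over no rapamycin, was 0.710 (quartiles 0.204 and 0.983), and 98 were narrower with rapamycin. The ratio at RFA1 and SEN34 stood at percentile 63.2 of these, above the median, so most of the other paired wide sites narrowed more.

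**Figure D1:**
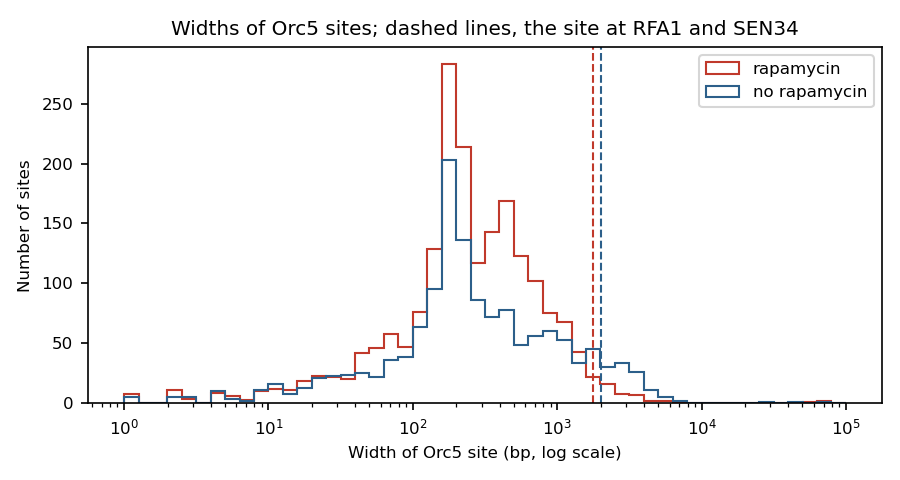
Number of Orc5 sites (y axis) by width in bp on a log scale (x axis), with rapamycin in red and without in blue; dashed lines mark the wide site at RFA1 and SEN34. Both dashed lines, at 1777 bp and 2023 bp, stand far to the right of the median widths of 229 bp and 225 bp.

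The stretch held another Orc5 site at the 3′ end of RFA1, and one more lay just past its right end, at TGA1. The site in RFA1 spanned I:156396-157246 (851 bp) with rapamycin and I:156522-157239 (718 bp) without. The site at TGA1 spanned I:166164-166918 (755 bp) with rapamycin and I:166188-166455 (268 bp) without. These were wider with rapamycin, in contrast to the wide site. YAR009C and YAR010C held no Orc5 site in either list.

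Break peaks lay in the stretch in 12 of the 16 lists, namely in every list of INO80-FRB Mot1-FRB, INO80-FRB and WT-FRB. The 4 Mot1-FRB lists had none. These held 24 and 5 peaks with HU and 40 and 14 without, of which 1 lay on chromosome I. The next break peak outside the stretch was at least 3997 bp to its left and at least 9948 bp to its right, in the lists that had one on the chromosome. Of all merged break regions, 11.4% had a peak in at least 12 lists. Within 500 bp of the wide Orc5 site 12 lists had a peak, which held for 1.65% of wide sites and for 0.780% of all Orc5 sites without rapamycin. Since the locus was chosen by that count, nothing is read from it.

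Among wide Orc5 sites, 21.8% were overlapped by a break peak in at least 1 list and 26.7% had one within 500 bp in at least 1 list. The site at RFA1 and SEN34 belongs to the second class and not to the first. The other wide sites with a break within 500 bp in 12 lists lay at XVI:940912-942804 (ARR3, an arsenite transporter), at II:5847-7482 (PAU9, of the seripauperin family) and at XII:449679-451275 (in the ribosomal DNA, RDN37-1 and ETS2-1). Peaks overlapped the site at PAU9 in 2 lists and those at ARR3 and in the ribosomal DNA in 0. The gap between the right edge of the Orc5 site without rapamycin and the first break peak was between 64 bp (INO80-FRB with HU, replicate 1) and 247 bp (INO80-FRB Mot1-FRB with HU, replicate 1), with a median of 171.5 bp over the 12 lists. Against the narrower site with rapamycin the gap was 274 to 457 bp.

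The 56 peaks formed 4 blocks along the unnamed frames, 44 with their summit in YAR009C and 12 in YAR010C. The first block (I:160459-161282, 824 bp) reached from 138 bp beyond the end of YAR009C into its last part. It was present in all 12 lists, with 13 peaks of 167 to 792 bp (median 665 bp). In 9 lists its peak also touched the 803-bp interval between SEN34 and YAR009C, by at most 138 bp. Of its summits 12 fell within 159 bp of each other, at I:160669-160828, and the remaining one, an added peak of WT-FRB with HU replicate 1, was at position 161150.

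The second block (I:161471-161891, 421 bp) was present in 5 lists, all 4 of INO80-FRB and replicate 2 of INO80-FRB Mot1-FRB without HU, and in none of the 4 WT-FRB lists. Its folds over the local background were low, between 1.90 and 2.30. This block was singled out after its values were seen, so the difference between strains was not tested. The third block (I:162075-163624, 1550 bp) had 26 peaks in 12 lists, and most lists split it into 2 or 3 separate peaks. The longest unsplit one, in INO80-FRB replicate 2, had 1447 bp. The fourth block (I:164808-165815, 1008 bp) lay in YAR010C and was present in 11 lists. The list without it was INO80-FRB Mot1-FRB with HU, replicate 1.

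**Figure D2:**
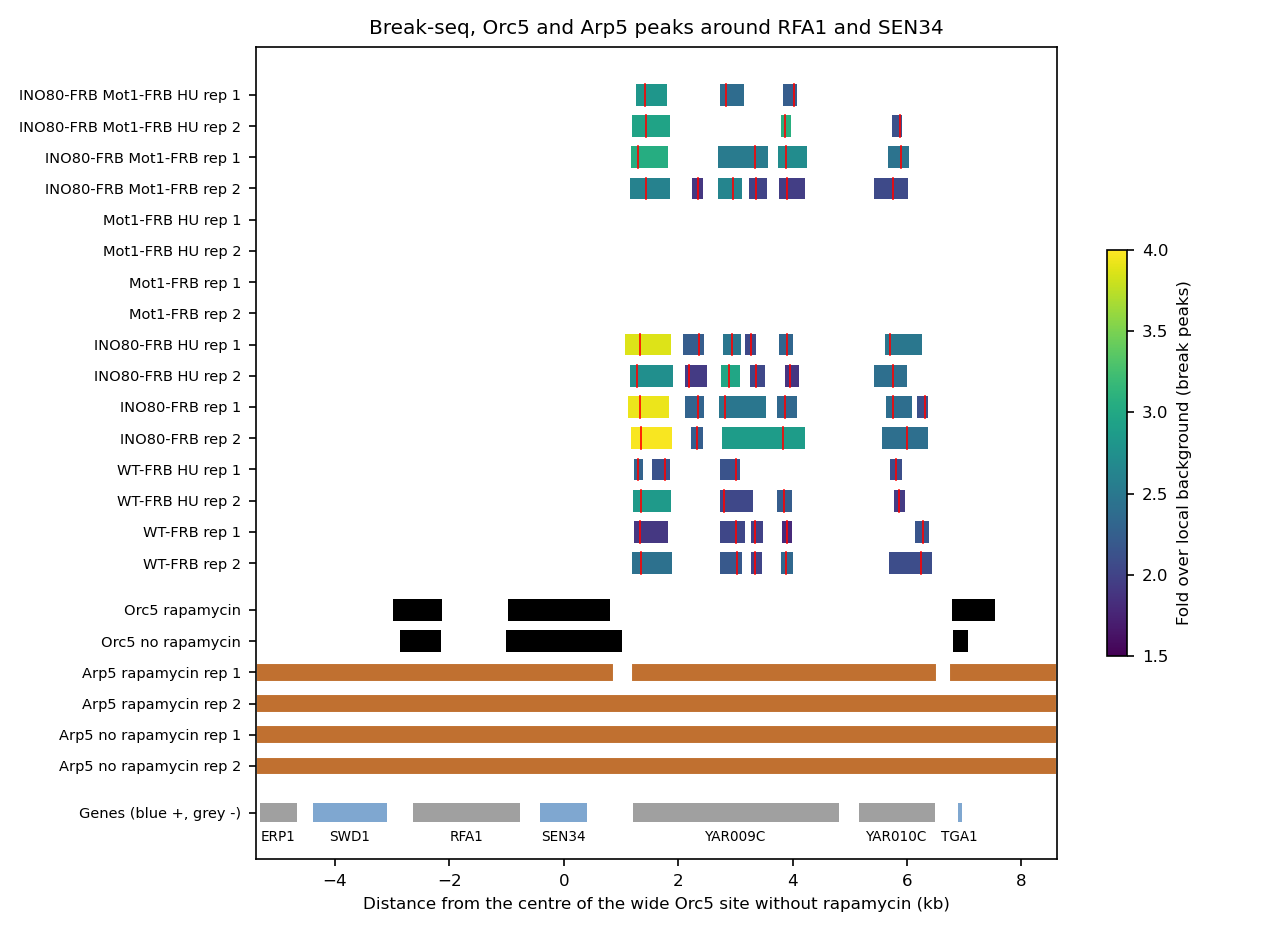
Break peaks of the 16 Break-seq libraries (boxes coloured by fold over local background, red ticks at summits), Orc5 sites (black), Arp5 peaks (brown) and genes (blue plus strand, grey minus strand) by distance in kb from the centre of the wide Orc5 site. The break peaks stand over YAR009C and YAR010C and up to 138 bp beyond the end of YAR009C, beside the Orc5 site over RFA1 and SEN34, and the 4 Mot1-FRB rows are empty.

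The authors' fold of a peak over its local background describes its height within 1 library and was not tested between groups. Over the 56 peaks it was 1.79 to 3.97 (median 2.29). The first block held the highest peak of the stretch in 8 of the 12 lists, the third block in 3 and the fourth block in 1 (WT-FRB replicate 1). In 11 of the 12 lists the highest fold of the stretch was above that list's median, the exception being WT-FRB with HU, replicate 1.

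At the first block the fold was 2.82 and 2.95 in INO80-FRB Mot1-FRB with HU and 3.05 and 2.61 without. In INO80-FRB it was 3.87 and 2.73 with HU and 3.93 and 3.97 without. In WT-FRB it was 2.28 and 2.85 with HU and 1.91 and 2.42 without. The 4 INO80-FRB values (median 3.90) and the 4 WT-FRB values (median 2.35) overlapped, since replicate 2 of INO80-FRB with HU was below replicate 2 of WT-FRB with HU. The INO80-FRB Mot1-FRB values had a median of 2.89, between those of both.

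A fold depends on the local background as well as on the peak. Working back to reads from the deposited fold and −log10 p, the first-block peak without HU stood on 94 and 86 reads over backgrounds of 23.2 and 20.9 in INO80-FRB, against 69 and 86 reads over 35.7 and 34.9 in WT-FRB. With HU it stood on 88 and 67 reads over 22.0 and 23.9 in INO80-FRB, against 53 and 71 reads over 22.7 and 24.2 in WT-FRB. In INO80-FRB Mot1-FRB it stood on 65 and 36 reads over 22.4 and 11.5 with HU, and on 82 and 90 reads over 26.2 and 33.9 without. The backgrounds of INO80-FRB and WT-FRB did not overlap without HU, while with HU they nearly coincided. The part of the background in the fold was not tested.

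The length of the stretch covered by break peaks was not what the locus was chosen by, although which lists had a peak was. It was 1197 and 1000 bp in INO80-FRB Mot1-FRB with HU, against 2400 and 2696 bp without HU. In INO80-FRB it was 2532 and 2546 bp with HU, against 2875 and 3178 bp without. In WT-FRB it was 1059 and 1689 bp with HU, against 1667 and 2239 bp without. It was 0 in all 4 Mot1-FRB libraries. Values with and without HU did not overlap in INO80-FRB Mot1-FRB or in INO80-FRB, and overlapped in WT-FRB.

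Over all 16 libraries, less of the stretch was covered by break peaks with HU, but the call depended on the adjustment and the measure. The covered length averaged 1253 ± 981 bp with HU and 1882 ± 1245 bp without (SD, n = 8 each). The difference of -629 bp had an exact two-sided permutation p of 0.0185 within strains (0.0222 after Benjamini-Hochberg adjustment over 6 tests) and was negative in 3 of 4 strains, the Mot1-FRB libraries being at 0. Without the Mot1-FRB lists it was -839 bp, with the same exact permutation p of 0.0185 but 0.0833 after adjustment. Of these p-values only the adjusted one changed, because the tests by INO80 and Mot1 tag in the same family had larger p-values there. Over all 16 libraries the adjustment also took in those tests, which are read as a description only. The HU difference did not pass as a share of the nuclear length covered by all peaks of a list (-0.14 percentage points, exact permutation p = 0.222, adjusted 0.267) or as a number of peaks (-0.5 peaks, exact permutation p = 0.472, adjusted 0.567). Lists held 222 and 180 peaks with HU and 310 and 310 without in INO80-FRB Mot1-FRB, and 352 and 318 with HU and 510 and 373 without in WT-FRB. In INO80-FRB they held 358 and 347 with HU and 365 and 318 without, so there the numbers overlapped. The first-block backgrounds given above were lower with HU in INO80-FRB Mot1-FRB and WT-FRB, and overlapped in INO80-FRB. The part of the background in the difference was not tested, nor was that of list length beyond the share above.

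INO80-FRB libraries had more of the stretch covered than WT-FRB libraries. With HU the means were 2539 ± 9.90 bp in INO80-FRB and 1374 ± 445 bp in WT-FRB, and without HU 3026.5 ± 214 bp in INO80-FRB and 1953 ± 404 bp in WT-FRB (SD, n = 2 each), with no overlap in either. Tested without the Mot1-FRB lists, the difference by INO80 tag was 1119 bp, with an exact permutation p of 0.0556 (0.0833 adjusted), the smallest p that this smaller design allows, so it could not pass the threshold of 0.05. As a share of the list the covered length was 1.69% to 2.28% in INO80-FRB and 1.56% to 1.88% in INO80-FRB Mot1-FRB, against 0.906% to 1.51% in WT-FRB. Over all 16 libraries the difference was 1471 bp (2303 ± 783 bp in strains tagged for INO80 and 832 ± 944 bp in the others, SD, n = 8 each; exact permutation p = 0.00154, adjusted 0.00309). In 2 of its 4 strata that comparison is with Mot1-FRB lists at 0, which was known from the choice of the locus, so this p is given as a description only.

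INO80-FRB Mot1-FRB libraries had less of the stretch covered than INO80-FRB libraries. The difference in means was -1440.5 bp with HU and -478.5 bp without, with no overlap in either. The Mot1-FRB lists are short throughout the genome, so their 0 at this locus cannot be told apart from the shortness of the list. Tested without them, the difference by Mot1 tag was -959.5 bp (exact permutation p = 0.0556, again the smallest possible, adjusted 0.0833). Over all 16 libraries it was -1311.5 bp (912 ± 1122 bp in strains tagged for Mot1 and 2223 ± 706 bp in the others, SD, n = 8 each; exact permutation p = 0.00154, adjusted 0.00309), and for the same reason this p is a description only.

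**Figure D3:**
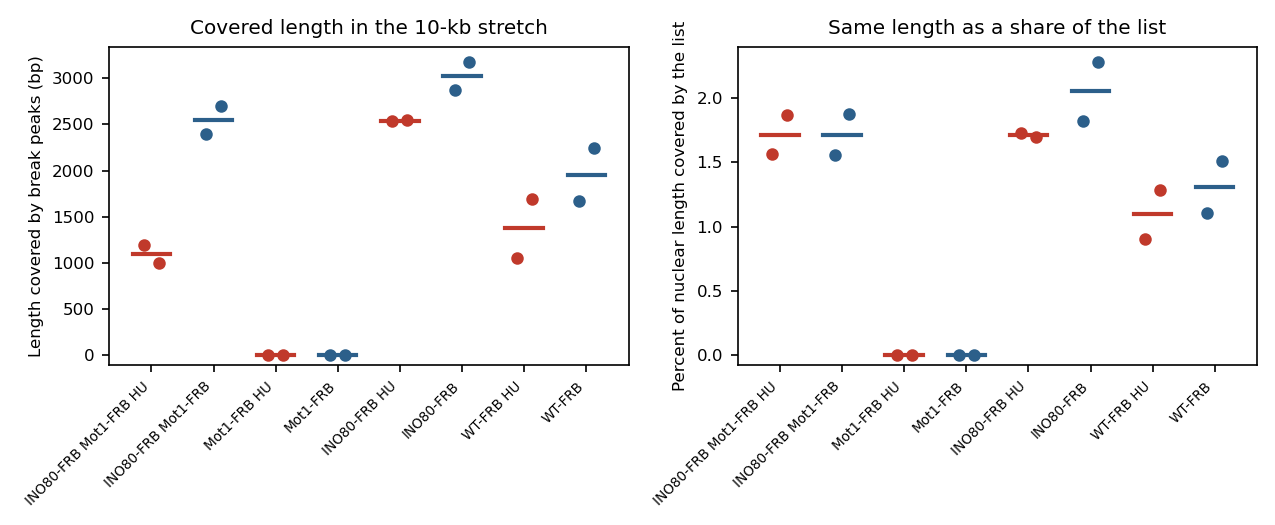
Length of the 10-kb stretch covered by break peaks in bp (left) and as a percentage of the nuclear length covered by all peaks of the list (right); points are libraries, bars group means, red with HU and blue without. The INO80-FRB libraries cover 2532 to 3178 bp and the Mot1-FRB libraries 0, and as a percentage the values with and without HU overlap in INO80-FRB Mot1-FRB and WT-FRB but not in INO80-FRB.

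The 500 bp on each side of the wide Orc5 site are the window by which the locus was chosen, and all the covered length in it belongs to the first block. That length averaged 230.5 ± 162 bp with HU and 253 ± 159 bp without (SD, n = 8 each), a difference of -22.75 bp. Its exact permutation p of 0.389 (adjusted 0.389) is a description only, since peaks in this window chose the locus. It averaged 348.5 ± 53.1 bp in strains tagged for INO80, against 135 ± 152 bp in the others, and 159 ± 172 bp in strains tagged for Mot1, against 325 ± 80.2 bp in the others (SD, n = 8 each). Without the Mot1-FRB lists, whose 0 the choice of the locus had fixed, these differences were 109 bp by INO80 tag and -62.5 bp by Mot1 tag. Their exact permutation p-values were 0.0556 by INO80 tag (adjusted 0.0833) and 0.167 by Mot1 tag (adjusted 0.2). These p-values are again a description only, since peaks in this window chose the locus.

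YAR009C and YAR010C with the 356 bp between them span 5270 bp, close to the length of 40 other unnamed frames of the genome (within 150 bp). Frames of that length include the long frame of the Ty1 and Ty2 retrotransposons, mobile elements present in many near-identical copies, but no transposon annotation was used here. Reads from near-identical copies can be placed at the wrong one, and how such reads were treated is not given in the sources used here, so values for single frames are uncertain. A break peak in all 12 lists was found for 85.0% of these 40 frames (34 frames). The presence of breaks in 12 lists at YAR009C and YAR010C was therefore near what frames of this length had in general.

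An Orc5 site lay within 500 bp of 18 of the 40 frames (45%), a wide one at 5. The 26 frames with a length within 5 bp of that span were compared with it by distance from the frame end. No sequences were aligned. In each of the 12 lists, the covered length of YAR009C and YAR010C was within the range of these 26 frames, and in 9 lists above their median. The fold of the first block was above the median of the frames with a peak at that place in 10 of 12 lists. In INO80-FRB replicate 2 it was the highest, at 3.97 against at most 3.52 in the 21 frames with a peak there. Peaks of this block chose the locus and set the bounds of the block, so these ranks are a description only.

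At the places of the chromosome I blocks the other frames also had break peaks. They had them between the blocks too, in medians of 8 to 10 lists, so these counts do not show matching blocks. At the place of the first block, other frames had a break in a median of 10.5 of the 12 lists, and 10 of the 26 had it in all 12. At the place of the second block the median was also 10.5 lists, and 21 of the 26 frames had at least the 5 lists seen on chromosome I. At the place of the third block the median was 12 lists. At that of the fourth it was 9, and 7 frames had at least 11.

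Between the third and the fourth block, I:163625-164807 (1183 bp) held no break peak in any list. This stretch contains the start of YAR009C, the interval between both frames and the end of YAR010C. All of the 26 other frames had a break at that place in at least 5 lists, with a median of 10. The intervals between the first and the second block (188 bp) and between the second and the third block (183 bp) were also free of break peaks on chromosome I. There the other frames had medians of 8 and 9 lists, and 3 and 5 of the 26 had none either. These intervals were defined by the lack of peaks on chromosome I, so their 0 was fixed and nothing was tested. Across the 5270 positions, which are not independent, the share of lists with a break correlated with the mean of the other frames at r = 0.283, and with single frames at -0.390 to 0.545 (median 0.138), as a description.

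**Figure D4:**
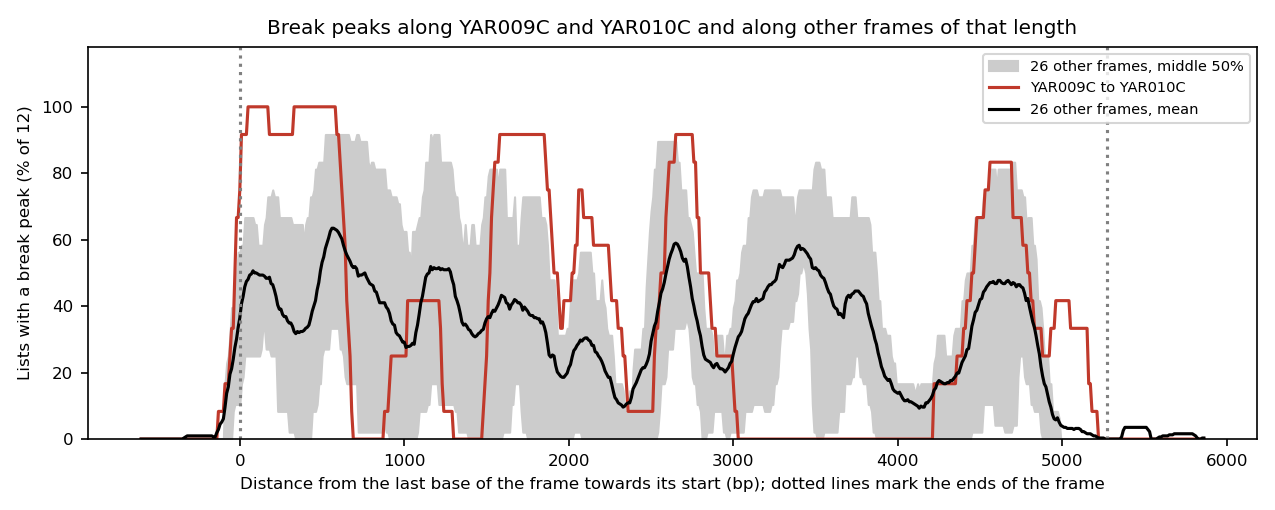
Percentage of the 12 lists with a break peak (y axis) by distance in bp from the last base of YAR009C towards the start of YAR010C (x axis), in red, with the mean (black) and the middle 50% (grey) of 26 other unnamed frames of that length. The red line reaches 100% at the first block and is 0 between the third and the fourth block, where the black line is not.

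By the likeness measure used here, a region was most like the first block if it had a peak in the same 12 lists and its fold took a similar rank in each list. A peak in the same lists was found for 61 regions, of which 31 lay in the 40 frames. The nearest were in YFL002W-A (VI:141525-143578, mean difference of 5.32 percentile points over the 12 lists), YLR035C-A (XII:215243-216520, 9.09 points), YBR012W-B (II:261433-262167, 9.42 points), YLR227W-B (XII:597301-598798, 9.90 points) and YLR410W-B (XII:946209-946857, 10.4 points). YLR035C-A is an unnamed frame outside the length class, and the others belong to it.

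In 3 of the 4 Arp5 lists a single wide peak covered the whole stretch, so it could not be placed at any gene. With rapamycin, replicate 2 had a single peak of 46.8 kb (I:151765-198547, enrichment 2.16). Without rapamycin, replicates 1 and 2 had a single peak of the same width each (I:151730-198528, enrichment 2.14, and I:151714-198533, enrichment 2.10). These enrichments were below the medians of their lists, 5.22 with rapamycin and 4.32 in both lists without. Enrichment here is the authors' ratio of ChIP reads to scaled control reads within a peak.

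Rapamycin replicate 1 was split into 3 peaks at the locus, and the middle one matched the unnamed frames. It spanned I:160560-165905 and held 3425 ChIP reads against 28 control reads, an enrichment of 123. Per kb of peak this was 641 ChIP and 5.24 control reads. The peak to its left, which holds RFA1 and SEN34 (I:152153-160260), had 478 ChIP and 301 control reads per kb (enrichment 1.59). The peak to its right, which begins with TGA1 (I:166119-175972), had 480 ChIP and 288 control reads per kb (enrichment 1.66). The ChIP level was thus moderately higher over YAR009C and YAR010C, and the control level was much lower there. A 299-bp gap without Arp5 peak (I:160261-160559) lay between the right edge of the wide Orc5 site with rapamycin and YAR009C.

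Peaks of this kind were also called at single other frames of the length class. YHR214C-B had 3285 ChIP and 12 control reads in rapamycin replicate 1, against 4095 and 14 in replicate 1 without rapamycin and 3368 and 9 in replicate 2 without. YFL002W-A had 2996 ChIP reads and 1 control read in rapamycin replicate 1. YJR027W had 4033 ChIP and 5 control reads in replicate 1 without rapamycin, and 3472 and 4 in replicate 2. Rapamycin replicate 2 had no such peak. Low control reads over frames of this length were therefore seen with and without rapamycin.

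Over the 10-kb stretch Arp5 peaks covered 9607 and 10001 bp with rapamycin, against 10001 bp in both libraries without. The difference in means was -197 bp (exact two-sided permutation p = 1, and 2 against 2 libraries cannot go below 0.33). It came from the splitting of the peak in 1 library.

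**Figure D5:**
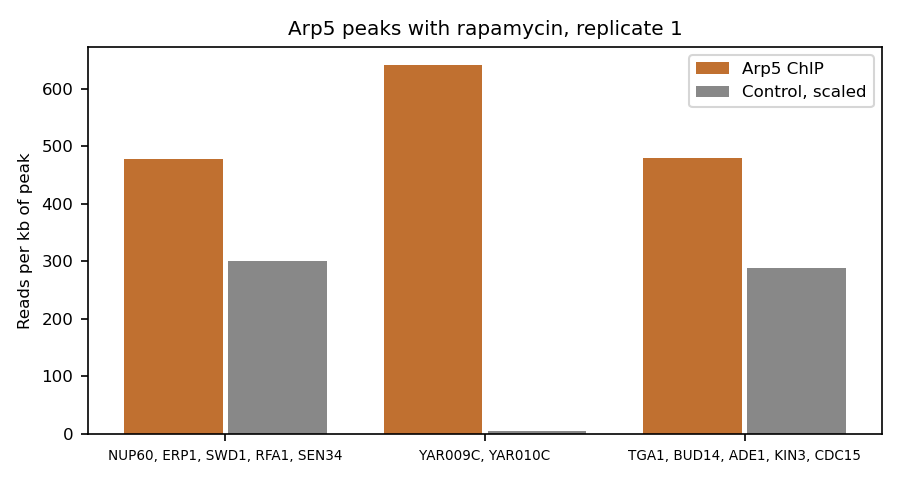
Reads per kb of peak (y axis) for Arp5 ChIP (brown) and scaled control (grey) in the 3 Arp5 peaks of rapamycin replicate 1 at the locus, named by the genes they hold (x axis). The peak over YAR009C and YAR010C has 641 ChIP and 5.24 control reads per kb, while its neighbours have 478 and 480 ChIP reads per kb over 301 and 288 control reads.

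The partner genes of RFA1 and SEN34 had neither a break peak nor an Orc5 site beside them. RFA2 and RFA3 encode the other subunits of replication protein A, and SEN2, SEN15 and SEN54 those of the tRNA splicing endonuclease. In the gene or within 500 bp, these 5 genes had a break peak in 0 of 16 lists and no Orc5 site in either condition. Over all nuclear protein-coding genes, 10.2% had a break peak so placed in at least 1 list, and 41.3% an Orc5 site with rapamycin and 31.3% without, so 0 of 5 does not set these genes apart. Arp5 peaks at RFA2 had a highest enrichment of 2.36 and 2.40 with rapamycin, against 2.21 and 2.22 without. At RFA3 the values were 20.2 and 11.3 with rapamycin, against 19.1 and 22.2 without, and at SEN15 they were 4.01 and 3.60 with rapamycin, against 4.22 and 3.93 without. SEN54 had an enrichment of 83.4 in rapamycin replicate 2, whereas the other 3 lists have no peak on its chromosome. None of the 4 Arp5 lists has a peak on the chromosome of SEN2.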

How the data were processed

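Peak lists of 16 Break-seq, 2 Orc5 and 4 Arp5 ChIP-seq libraries were used, 1 list per library, grouped by the labels. The 8 NET-seq libraries of the 30 samples were not analysed here. The submitters' processing notes name Bowtie2 and sacCer3. The peak callers used are not stated in these sources. For Break-seq peaks the deposited columns are a score, the fold over local background, and −log10 of the p-value and of the q-value. For Arp5 peaks they are, per the file headers, the ChIP read count, a control signal after scaling, their ratio, called enrichment, and a q-value. The deposited Orc5 lists hold positions only. They were read as starting from 0, so a start may be off by 1 bp. In them 15 empty or repeated lines were dropped with rapamycin and 4 without.

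Genes came from RefSeq R64, the assembly of sacCer3. The last letter of a systematic name (W or C) gave its strand. Pileup and background were solved for from the fold and −log10 p with Poisson counts, and 56 of 56 peaks gave a whole pileup within 0.001. Blocks are merged peaks of all lists. Frames were matched by length to 150 bp, and those within 5 bp were compared by distance from the frame end, without sequence alignment. An Arp5 peak belonged to a frame at 80% overlap both ways. Covered length was compared by exact two-sided permutation within strata, with Benjamini-Hochberg adjustment over 6 tests, threshold 0.05. The permutation procedure was tested on simulated data. The genes named are RFA1, SEN34, all genes that overlap the stretch, the next gene on each side, the other subunits of both complexes and the nearest regions by likeness. Other names were chosen after their values were seen. The members, lists and length class were chosen with earlier results of these data known. Alternatives covered the libraries entering, the measure, the peak threshold, the bounds and the replicate block. Python 3.11.15, numpy 2.4.6, pandas 2.3.3, scipy 1.17.1 and matplotlib 3.10.9 were used.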

Additional observations from a re-analysis of the deposited data

How the results depend on the processing

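Peak lists limit what can be said: depth is unknown, a peak's presence depends on the list's length, and groups hold 1 or 2 libraries. The number of lists with a break at the locus stayed at 12 with summits in place of overlap and with only peaks above the list's median score. The summed width of the Orc5 sites in the stretch, rapamycin minus no rapamycin, was -113 bp. Taking sites at RFA1 or SEN34 only selects the same sites, so that value could not change. Differences below are in bp of covered length unless named otherwise, with exact permutation tests.

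Tests by INO80 and Mot1 depletion are a description only at the Orc5 site and wherever the Mot1-FRB libraries enter. Those by HU at the Orc5 site are a description only as well. Without the Mot1-FRB libraries none of the differences passed the adjusted threshold. Those by INO80 and Mot1 depletion could not, since their smallest possible exact permutation p was 0.0556. In the stretch they were -839 by HU (exact permutation, adjusted p = 0.0833), 1119 by INO80 depletion and -959.5 by Mot1 depletion (both adjusted p = 0.0833), and within 500 bp of the Orc5 site 109 by INO80 (0.0833) and -62.5 by Mot1 depletion (0.2). As a percentage of the list's length, the HU difference lost its call in the stretch (-0.14 percentage points) and changed sign at the Orc5 site (0.061). That by Mot1 depletion at the site was -0.050 and did not pass. With the number of peaks in place of length, the HU difference in the stretch was -0.5 peaks and those by INO80 and Mot1 depletion at the site were 0.5 and -0.5, none passing. With only peaks above the median score the HU difference at the site was 13.4. With bounds widened by 2 kb it was -259 (exact permutation, adjusted p = 0.0278), since more blocks then entered. The widened bounds still hold the window that chose the locus, so this p is a description only. An alternative chosen after seeing the data took the percentage of the list without the Mot1-FRB libraries. There the differences by HU, INO80 and Mot1 depletion were -0.18, 0.68 and -0.17 percentage points in the stretch. At the site they were 0.082, 0.060 and 0.095 percentage points, with the HU and Mot1 signs turned. None passed, and those by INO80 and Mot1 depletion again could not. Where no cause is named above, the cause was not tested.

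Leaving out each library in turn kept the HU call in the stretch. Each such run still held Mot1-FRB lists at 0, so for INO80 and Mot1 depletion it gives a range only. At the site it gives a range only for HU too. The adjustment of the HU p took in the INO80 and Mot1 tests. Leaving out all Mot1-FRB lists gave an adjusted HU p of 0.0833 in the stretch (exact permutation), as stated above. In the stretch the difference by HU was then -707.75 to -550.25, by INO80 depletion 1392.5 to 1550 and by Mot1 depletion -1390.25 to -1232.75. At the site these were -39.4 to -6.13, 197 to 230 and -183 to -150. The Arp5 difference was -394 to 0.

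The replicate block swaps labels only between libraries of the same number. With it the HU difference of -629 in the stretch kept its call, at an adjusted p of 0.0375 (exact permutation). Those by INO80 and Mot1 depletion had an adjusted p of 0.0156 (exact permutation). They include the Mot1-FRB lists at 0, so this value is again a description only, and the adjustment of the HU p took in these tests. Replicate 1 covered less than replicate 2 in 5 of 6 groups outside Mot1-FRB, and the labels give the numbers no meaning beyond naming.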
